A study of Mus musculus with 6 samples.

Results

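The PIM kinases (Pim1, Pim2 and Pim3), the cytokine-inducible SH2 genes (Socs1, Socs2, Socs3 and Cish), the STAT5 genes (Stat5a and Stat5b) and Bcl6 were followed in mouse Lhx2 cells 2 h after transforming growth factor β1 (TGF-β1). These 10 genes were found on the arrays through the RefSeq accession of each probe, which gave 12 probes of 41174. All 12 were well above background on all 6 arrays, and all 10 genes were among the 29161 genes and transcripts tested. Lhx2 cells are a mouse line with features of blood progenitors, named after the LIM-homeobox gene whose forced expression such lines are known to depend on. The labels do not give the promoter behind that expression. All samples were of this 1 line, kept in medium with stem cell factor (SCF) and human interleukin 6, and starved of serum overnight, with bovine serum albumin in place of foetal calf serum. The untreated group (3 arrays) received no TGF-β1, and the treated group (3 arrays) received 10 ng/ml for 2 h. RNA was harvested independently 3 times, per the series design text, and the arrays that carry 1 replicate number form a pair.

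Each value below is the background-corrected signal of a probe as a percentage of its own array's 75th percentile signal, and each change is the treated minus the untreated value on the log2 scale, paired by replicate number. The 75th percentile lay between 794.2 and 1031 and the share of probes well above background between 82.8% and 90.3%. Both extremes were in pair 3, the lowest values on its untreated array and the highest on its treated one. Lhx2 itself was at 4.27 to 6.88%, and whether its probe reads the introduced transcript was not tested. All 8 progenitor markers, Lhx2 among them, were measured. None passed the threshold (limma, 5 at an unadjusted p under 0.05), but in each pair TGF-β1 went with a higher summed signal, untreated then treated, of 9945% and 12580% in pair 1, 8952% and 11250% in pair 2, and 9560% and 9872% in pair 3. They did not share a direction. Cd34 (log2 change 0.39, SE 0.13) and Gata2 (0.76, SE 0.12) were higher on every treated array than on every untreated one. For Gata2 the margin was negligible, since untreated pair 1 and treated pair 3 both rounded to 1388%. Lmo2 (-0.67, SE 0.12), Kit (-0.46, SE 0.10) and Ptprc (-0.39, SE 0.12) were lower in every pair. Cd34 weighed most in the sum, at 4928 to 5388% untreated and 6071 to 7351% treated. For the fibroblast markers the summed signal followed the pair and not the treatment. It was 168% and 194% in pair 3, 2141% and 2481% in pair 1, and 6509% and 6287% in pair 2. Dcn and Col1a2 were the brightest of them on each array. Pdgfrb and Lum did not share this order, and Pdgfrb had pair values of 0.48, 0.91 and -0.02. The summed signal of the 5 mast cell markers was lower on the treated array of each pair, at 1519% and 1149% in pair 1, 2116% and 1730% in pair 2, and 1466% and 1137% in pair 3. Of these Cpa3, the brightest, had -0.37 (SE 0.10) and Ms4a2 -0.50 (SE 0.11), both lower in every pair. Fcer1a had -0.10 (SE 0.15), Cma1 0.14 (SE 0.13) and Tpsb2 0.29 (SE 0.24), each with pairs of either sign. None of the 5 passed (limma, 2 at an unadjusted p under 0.05). The granulocyte sum was lower in each pair as well (63660% and 63150%, 61830% and 61210%, 71640% and 63800%). So was the T cell sum (163.9% and 163.4%, 189.7% and 175.1%, 157.9% and 133.1%). The genes of these lists did not share a direction. Of the granulocyte markers 2 had positive and 4 negative changes, and Mpo, the brightest, had -0.02 (SE 0.10). Of the T cell markers Cd3e (-0.45, SE 0.21) was lower in every pair and Lck (0.15, SE 0.10) higher in every pair. No marker of either list had an unadjusted p under 0.05 (limma). The mast cell, granulocyte, T cell and B cell sums all overlapped between the groups. With the replicate number as a block, 196 of 29161 genes and transcripts changed (limma, Benjamini-Hochberg adjusted p under 0.05), which is 0.672%. In that fit 161 (0.552%) were higher and 35 (0.120%) lower, and without the block 74 (0.254%) changed.

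Many cytokine receptors of blood cells have no kinase of their own and signal through Janus kinases (JAKs), which phosphorylate STAT transcription factors. STAT5 follows many growth and survival cytokines, while interleukin 6 signals mainly through STAT3. Activated STATs switch on PIM kinases, serine/threonine kinases that are active without an activating phosphorylation and so depend on how much is made, and also SOCS proteins and CISH, which bind receptors or JAKs and damp the signal. BCL6 is a zinc-finger repressor whose own gene is known to be lowered by STAT5 and whose DNA site resembles that of STATs.

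Promoter windows from RefSeq (build GRCm38.p6, 250 bases before to 50 after a transcript start) were held for 9 of the 10 genes, 13 windows in all, and the gene without a window was Socs2. The letters TTCNNNGAA, which are the core of a STAT site and read the same on both strands, occurred in windows of 3 genes (Socs3, Cish and Bcl6). That was 4 of the 13 windows, against 8.3% of all 32851 windows. The letters CAGAC, the core of a SMAD-binding element searched on both strands, occurred in windows of 5 genes (Pim1, Pim2, Bcl6, Stat5a and Stat5b). That was 6 of the 13 windows, against 49.6% of all windows. The stretches below are shown because they set the STAT-type letters of the feedback genes and Bcl6 beside the windows of the PIM genes that were lower after treatment. They are read 5′ to 3′ along the gene. Capitals mark TTCNNNGAA in Socs3, Cish and Bcl6 and CAGAC on the reverse strand in Pim1 and Pim2.
Socs3: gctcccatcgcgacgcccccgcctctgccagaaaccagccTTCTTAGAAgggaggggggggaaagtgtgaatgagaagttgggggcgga
Cish: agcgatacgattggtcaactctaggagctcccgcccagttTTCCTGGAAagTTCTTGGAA
Bcl6: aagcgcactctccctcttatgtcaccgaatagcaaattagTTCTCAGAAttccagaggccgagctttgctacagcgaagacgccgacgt
Pim1: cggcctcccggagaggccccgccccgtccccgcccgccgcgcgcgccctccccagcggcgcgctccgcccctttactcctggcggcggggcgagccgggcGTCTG
Pim2: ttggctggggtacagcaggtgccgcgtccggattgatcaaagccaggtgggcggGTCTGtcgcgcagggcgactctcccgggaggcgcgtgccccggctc
The Socs3 stretch is chr11:117969472-117969560 on the minus strand, with its match 154 bases before the start. The Cish stretch is chr9:107296619-107296678 on the plus strand, with 2 matches, the first at the start itself and the second 11 bases after it. The Bcl6 stretch is chr16:23988922-23989010 on the minus strand, with a match 118 bases before the start. A second Bcl6 start had 3 more matches, TTCCTGGAA, TTCTGTGAA and TTCCGGGAA, at 168, 122 and 88 bases before it. The Pim1 stretch is chr17:29490685-29490789 and the Pim2 stretch chrX:7878206-7878305, both on the plus strand. The marked match of Pim1 is at the start and that of Pim2 46 bases before it. Outside these stretches Pim2 had further CAGAC matches 244 bases before and 45 bases after its start. A second Pim1 start had a match 52 bases before it. CAGAC also occurred 175 bases before the first Bcl6 start, outside the stretch shown, and 4 times in 1 Stat5a window. These letters thus do not set the PIM genes apart from the other members. A match is a description of letters in these windows and not a measured binding site.

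Pim1 and Pim2 fell to about the same extent after TGF-β1 and were the members that passed the threshold, 2 of 10 genes, where 0.672% of all genes tested passed and 0.120% passed downwards. The members were chosen with earlier results of these data known. Pim1, the founding PIM kinase and a STAT target in many blood cells, had signals of 157%, 120% and 144% in untreated pairs 1, 2 and 3 and 81.1%, 58.9% and 68.4% in the treated ones. Every treated array lay below every untreated array. On the log2 scale the means were 0.48 ± 0.20 untreated and -0.54 ± 0.23 treated (SD, n = 3). Pim1 was thus 2.02-fold lower, and its log2 change of -1.02 had an SE of 0.10 and a 95% confidence interval from -1.29 to -0.75 (adjusted p = 0.0423). The pair values were -0.96, -1.02 and -1.07, an SD of 0.06 over pairs. The summed mast cell, granulocyte and T cell signals were lower in each pair too, as given above, though the genes of each list did not share a direction. The part of these cell types in the values of Pim1 and Pim2 was not tested. In RNA from whole cultures, fewer cells of a type and less RNA per cell cannot be told apart.

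Pim2, the PIM kinase with a well-known role in survival of cytokine-dependent blood cells, had signals of 137%, 97.5% and 90.2% untreated and 64.6%, 50.4% and 42.8% treated. The highest treated array was below the lowest untreated one. Pim2 was 2.05-fold lower, and its log2 change of -1.04 had an SE of 0.10 and an interval from -1.31 to -0.77 (adjusted p = 0.0423). The 3 pairs gave -1.08, -0.95 and -1.08. A second, dimmer probe of Pim2 gave signals of 39.9%, 23.8% and 26.9% untreated and 17.5%, 12.8% and 10.9% treated. Its log2 change was -1.13 (SE 0.13, adjusted p = 0.0549 over all probes), so both probes gave a change of similar size and the dimmer one missed the threshold by a small margin. Without the block neither Pim1 (adjusted p = 0.128) nor Pim2 (adjusted p = 0.24) passed. The range of the pair means was 0.43 for Pim1 and 0.60 for Pim2 on the log2 scale, against a median of 0.37 over all genes tested.

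Pim3, the third kinase of the family, did not pass. Its signals were 160%, 126% and 134% untreated and 78.6%, 72.1% and 94.6% treated, with every treated array below every untreated one. Its change of -0.78 had an SE of 0.14 and an interval from -1.15 to -0.41 (adjusted p = 0.133), and the pair values were -1.03, -0.81 and -0.50. The spread of Pim3 over pairs was an SD of 0.26, against 0.06 for Pim1 and 0.07 for Pim2. Its interval overlaps those of Pim1 and Pim2, and the difference between the family's changes was not tested.

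**Figure D1:**
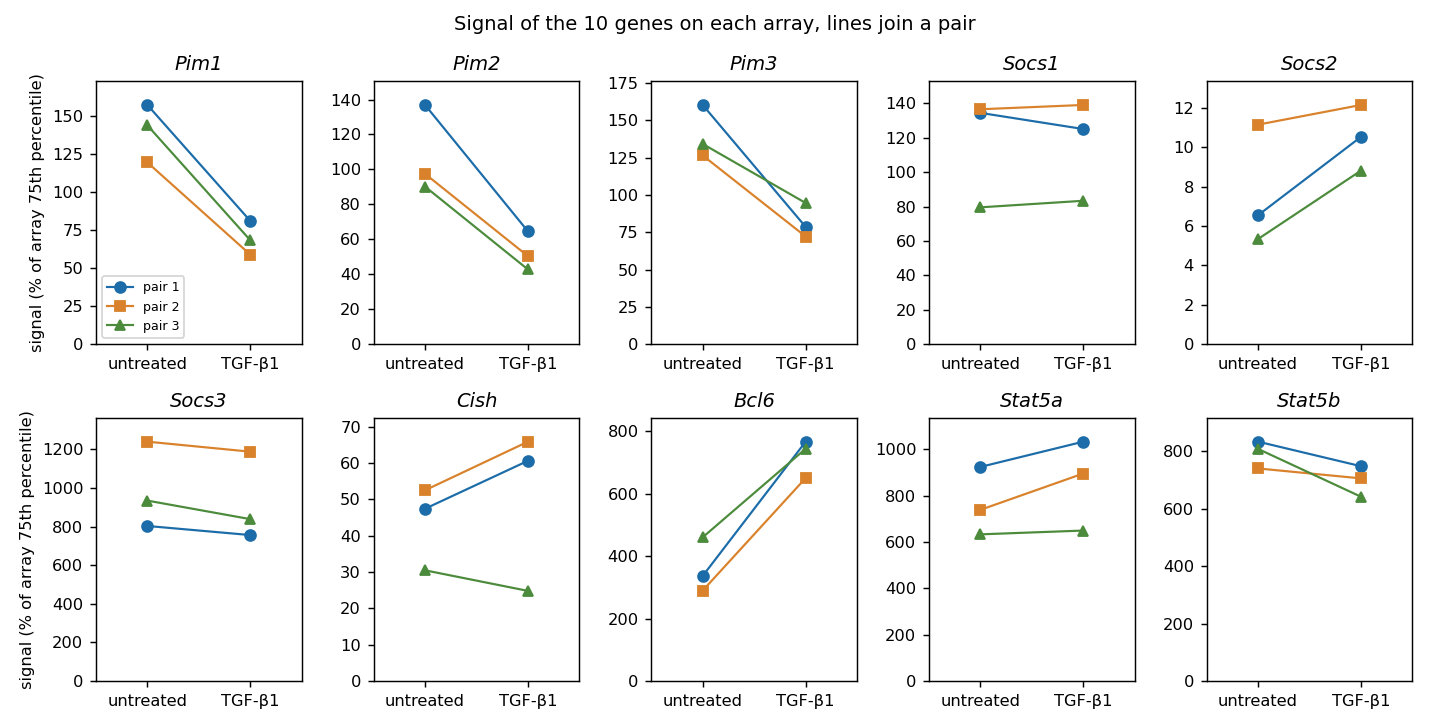
Signal of each gene on the 6 arrays, as a percentage of the array's 75th percentile (linear axes from 0), with lines joining the untreated and treated array of a pair. Pim1, Pim2 and Pim3 are lower on every treated array than on every untreated one, Bcl6 is higher, and the groups overlap for the other 6 genes.

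The feedback genes showed no common change. None of Socs1, Socs2, Socs3 and Cish passed by limma with Benjamini-Hochberg adjustment, and 1 of the 4 (Socs2) had an unadjusted p under 0.05. Socs3, the main feedback inhibitor of interleukin 6 signalling, had signals of 803%, 1240% and 935% untreated and 756%, 1188% and 838% treated. The order of the pairs was the same in both groups, and each treated array was slightly below its partner. The log2 change of Socs3 was -0.10 (SE 0.10, adjusted p = 0.837), and the 95% confidence interval ran from -0.37 to 0.17. Socs1, which blocks JAK kinase activity, had 135%, 137% and 79.6% untreated and 125%, 139% and 83.4% treated. Its change was close to 0 in each pair (-0.10, 0.03 and 0.07), with an interval from -0.28 to 0.27 (adjusted p = 0.997). Neither interval takes in a fall of the size measured for Pim1 and Pim2.

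Cish, a classical STAT5-induced inhibitor, had signals of 47.4%, 52.5% and 30.5% untreated and 60.7%, 65.9% and 24.8% treated. Pairs 1 and 2 had positive changes (0.35 and 0.33) and pair 3 a negative one (-0.30), so the groups overlapped and no direction was common to the pairs. The fitted change was 0.13 (SE 0.17, adjusted p = 0.887) with an interval from -0.32 to 0.58. Without pair 3 it was 0.34 (adjusted p = 0.179). Socs2, a STAT5-induced inhibitor best known for restraining growth hormone signalling, had a dim probe, with 6.55%, 11.2% and 5.34% untreated and 10.5%, 12.2% and 8.82% treated. Each treated array was above its partner, but the groups overlapped. The log2 change of Socs2 was 0.51 (SE 0.16, adjusted p = 0.358), and its pairs gave 0.69, 0.12 and 0.72. With another background correction (normexp) the Socs2 value was -0.05, in a fit where the median of all genes was -0.16 against -0.01 as reported.

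Bcl6 was the member with the greatest positive value. Its signals were 337%, 290% and 460% untreated and 767%, 650% and 744% treated, and every treated array was above every untreated one. Means on the log2 scale were 1.83 ± 0.34 untreated and 2.85 ± 0.13 treated (SD, n = 3). The difference was 2.02-fold (log2 change 1.02, SE 0.15), but it did not pass over all genes (adjusted p = 0.0855). Pairs 1 and 2 gave 1.19 and 1.17, and pair 3 gave 0.69. Pim1 and Bcl6 thus had values of near-equal size and opposite sign, while the SD over pairs was 0.06 for Pim1 and 0.28 for Bcl6. Bcl6 passed in 4 of 12 alternative ways of processing, among them the authors' own matrix values (log2 change 1.05, adjusted p = 0.00618).

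The STAT5 genes themselves had small values. Neither passed by limma with Benjamini-Hochberg adjustment, and 0 of the 2 had an unadjusted p under 0.05. Stat5a had signals of 924%, 739% and 633% untreated and 1033%, 896% and 649% treated, which gave 0.16 (SE 0.11, adjusted p = 0.719) with an interval from -0.13 to 0.45. Stat5b, its close paralog and chromosomal neighbour, had 834%, 741% and 809% untreated and 748%, 706% and 642% treated, which gave -0.19 (SE 0.11, adjusted p = 0.659) with an interval from -0.48 to 0.11. The pairs gave the same sign within each gene, positive for Stat5a and negative for Stat5b, while the groups overlapped for both. A dimmer Stat5b probe, between 18.3% and 23.6% on all arrays, gave 0.01 (SE 0.11). The coding sequences of these paralogs are closely alike, and whether the probes tell them apart was not tested.

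**Figure D2:**
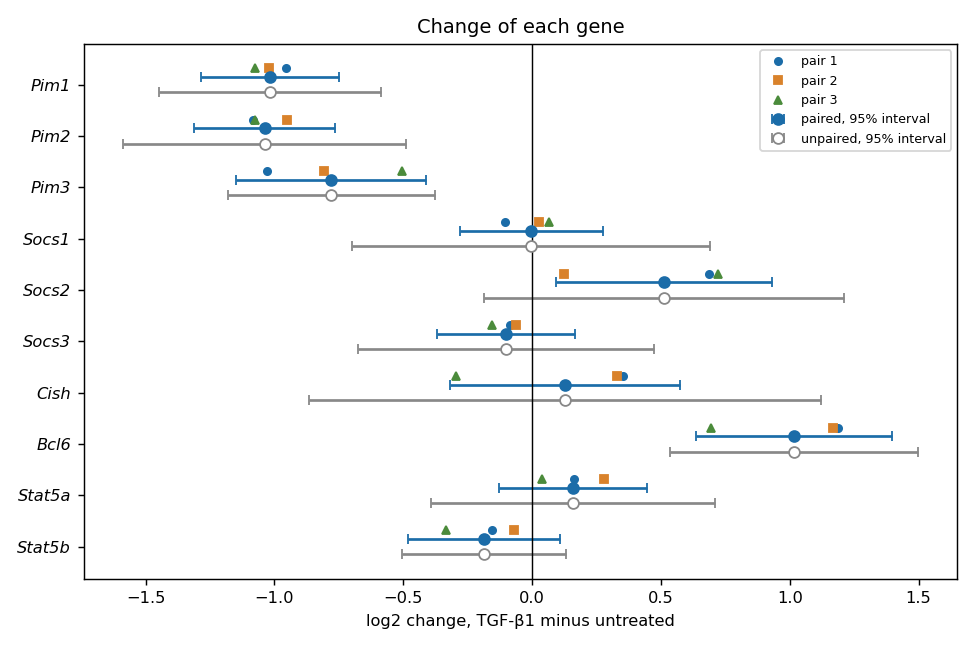
Log2 change of each gene (treated minus untreated) with 95% confidence intervals from the fit paired by replicate number (filled) and the unpaired fit (open), and the 3 pair values above them. The paired intervals of Pim1, Pim2, Pim3 and Bcl6 lie away from 0, that of Socs2 does so by a small margin, and those of the other 5 genes include 0.

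Counted over the 10 genes, 4 had groups that did not overlap (Pim1, Pim2 and Pim3 below, Bcl6 above), which 10.4% of all genes tested showed in either direction, 5.05% with the treated arrays lower and 5.37% with them higher. All 3 pairs moved the same way for 8 of 10 genes, against 34.2% of all genes, the exceptions being Socs1 and Cish. Of the 8, 5 were lower in every pair, against 20.0% of all genes. An unadjusted p under 0.05 was found for 5 of 10 genes (Pim1, Pim2, Pim3, Bcl6 and Socs2), against 10.9% of all genes. The median log2 change of the 10 was -0.05, close to the -0.01 of all genes, with 4 positive and 6 negative values.

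For several members the pair mattered as much as the treatment. Cish was lowest in pair 3, with a mean log2 level over both arrays of -1.86 there against -0.90 in pair 1 and -0.76 in pair 2. Socs1 was also lowest in pair 3 (-0.30 against 0.38 and 0.46). Socs3 was highest in pair 2 (3.60 against 2.96 in pair 1 and 3.15 in pair 3), and Socs2 was highest there too (-3.10 against -3.59 and -3.87). Of the 10 genes, 8 had a range of pair means above the median of all genes tested, and those with the smallest ranges were Stat5b (0.13) and Pim3 (0.24). Pair 3 was also the pair with the lowest summed signal of fibroblast markers, as given above, and of megakaryocyte markers (2109% and 1825%, against 6076 to 7330% in pairs 1 and 2). The part of these cell types in the levels of Cish and Socs1 was not tested.

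The 6 arrays lay on 2 slides. Slide 1 held untreated pairs 1 and 3 and treated pair 1, and slide 2 the other arrays. Within slide 1 the log2 changes were -0.89 for Pim1, -0.78 for Pim2, -0.90 for Pim3 and 0.96 for Bcl6, and within slide 2 they were -0.91, -1.07, -0.61 and 1.26. With the slide as a block in place of the replicate number they were -0.90 (adjusted p = 0.0806), -0.93 (0.245), -0.76 and 1.11 in the same order. These 4 genes thus kept their sign on either slide. Cish (0.67 on slide 1 and -0.38 on slide 2), Socs2 (0.83 and -0.11) and Socs1 (0.27 and -0.34) did not. On each slide 1 group had only 1 array, and the 2 arrays of pair 3 lay on different slides. The changes within a slide thus mix pairs, and slide and pair cannot be told apart in them. Only in pair 3 does the paired change also span both slides and the extremes of array signal. The part of these differences in the pair 3 values was not tested.

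Other genes of the pathway were taken from 6 lists holding 96 genes, of which 93 were measured. Of these 2 rose and 1 fell, where 0.672% of all genes tested passed. At an unadjusted p under 0.05 there were 33 of 93 (35.5%), against 10.9% of all genes. Their median log2 change was 0.08, against -0.01 for all genes. Among 21 cytokine receptors, JAKs and other STATs 0 passed by limma with Benjamini-Hochberg adjustment (7 at an unadjusted p under 0.05), with a median of 0.05, which ran from 0.0091 to 0.0717 over the alternatives. Of the 4 with the greatest absolute change 3 are receptor genes for the cytokines in the medium. Il6ra, the interleukin 6 receptor subunit, had 65.1%, 65.1% and 109% untreated and 119%, 97.1% and 159% treated (log2 change 0.66, SE 0.12, adjusted p = 0.138), higher in every pair but with overlapping groups. Il6st, which encodes the shared signalling subunit gp130, had -0.64 (SE 0.22, adjusted p = 0.407), and its pairs gave -0.52, -0.18 and -1.23. Kit, the SCF receptor, had -0.46 (SE 0.10, adjusted p = 0.203) and Csf3r, the receptor for granulocyte colony-stimulating factor, 0.49 (SE 0.12, adjusted p = 0.237).

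Of 15 other inhibitors of JAK-STAT signalling 0 passed (limma, 2 at an unadjusted p under 0.05), and the median was -0.04, which ran from -0.0745 to 0.0001 over the alternatives. Sh2b3, which encodes the adaptor LNK that restrains cytokine signalling in stem cells, had 28.9%, 27.5% and 34.5% untreated and 50.1%, 44.5% and 55.3% treated. Its groups did not overlap, and its log2 change was 0.72 (SE 0.10, adjusted p = 0.0855). The tyrosine phosphatase gene Ptpn2 had -0.32 (SE 0.12), the STAT-binding SUMO ligase gene Pias2 0.29 (SE 0.12) and Socs7 0.22 (SE 0.22).

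Of 14 other genes known as STAT5 targets 0 passed (limma, 8 at an unadjusted p under 0.05), with 9 positive and 5 negative values and a median of 0.15. The 4 of greatest absolute change were positive. Gadd45g, a stress-response gene, had 1.31 (SE 0.18, adjusted p = 0.0794) and Id1, an inhibitor of helix-loop-helix factors that is also a known TGF-β and BMP target, had 1.14 (SE 0.19, adjusted p = 0.111). Ccnd1, the cyclin D1 gene, had 0.78 (SE 0.11, adjusted p = 0.0811), and Bcl2l1, which encodes the survival protein BCL-XL, had 0.59 (SE 0.11, adjusted p = 0.142). Others were negative, as Pim1 and Pim2 were. Myc, which encodes a growth-promoting transcription factor, had -0.57 (SE 0.10, adjusted p = 0.132) and Bcl2, a survival gene, -0.46 (SE 0.12, adjusted p = 0.26), each lower on every treated array than on every untreated one. These 2 were named after their values were seen. Of 14 STAT3 target genes 0 passed (limma, 8 at an unadjusted p under 0.05), with 11 positive values and a median of 0.31. Il4ra, a subunit of the interleukin 4 receptor, had 1.0 (SE 0.19, adjusted p = 0.144), the NF-κB cofactor gene Bcl3 0.74 (SE 0.20), the adhesion gene Icam1 0.57 (SE 0.16) and the angiogenic factor gene Vegfa 0.53 (SE 0.11).

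Among 16 genes whose proteins are reported PIM substrates 1 rose and 0 fell (5 at an unadjusted p under 0.05), with a median of 0.19. That median was 0.072 without pair 3, 0.064 with array weights and 0.0591 with normexp. Runx3, a runt-domain transcription factor, rose 2.49-fold (log2 change 1.31, SE 0.12, adjusted p = 0.0363). Its signals went from 78.1%, 56.5% and 67.4% untreated to 212%, 146% and 148% treated, with no overlap. Its paralog Runx1 had 0.58 (SE 0.13, adjusted p = 0.193), the CDK inhibitor gene Cdkn1a 0.50 (SE 0.16), the stress kinase gene Map3k5 0.49 (SE 0.11) and the chemokine receptor gene Cxcr4 0.30 (SE 0.22). These are transcript values and say nothing of phosphorylation.

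Of 14 BCL6 co-repressors and target genes 1 rose and 1 fell (4 at an unadjusted p under 0.05), with a median of 0.14, which was 0.0445 without pair 3, 0.0667 with array weights and 0.0545 with normexp. Bcor, the BCL6 co-repressor, had signals of 459%, 345% and 336% untreated and 850%, 702% and 699% treated, with no overlap. It rose 1.99-fold (log2 change 0.99, SE 0.11, adjusted p = 0.0477). Cd69, an early activation marker and known BCL6-repressed gene, went from 49.7%, 40.1% and 83.2% to 21.2%, 16.6% and 31.6%, and fell 2.46-fold (log2 change -1.30, SE 0.11, adjusted p = 0.0311). The highest treated Cd69 signal, 31.6%, was below the lowest untreated one. The paralog Bcl6b, with a dim probe at 2.95 to 6.69%, had 0.83 (SE 0.15, adjusted p = 0.135). Prdm1, which encodes the BLIMP1 repressor, was also dim (2.7 to 5.8%) and had -0.53 (SE 0.27), with pairs of -1.12, -0.66 and 0.18. The adhesion receptor gene Cd44 had 0.22 (SE 0.11). Without the block Runx3 (adjusted p = 0.0874), Bcor (0.13) and Cd69 (0.376) did not pass.

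**Figure D3:**
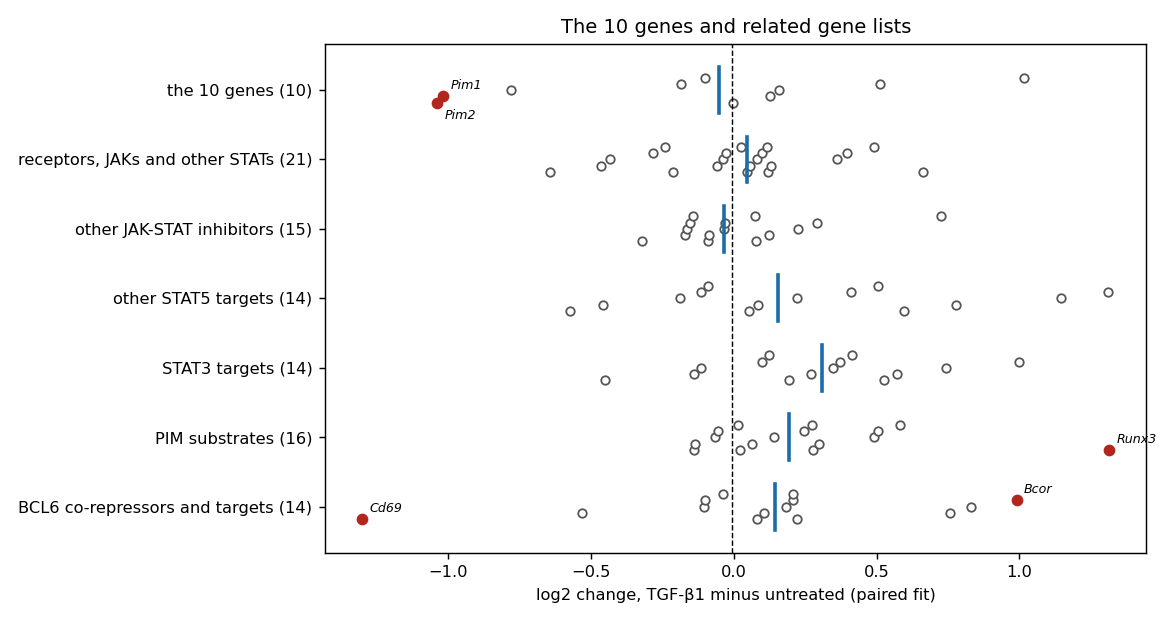
Log2 change (paired fit) of the 10 genes and of each measured gene in 6 related lists, with the number measured in brackets. Filled red points passed an adjusted p of 0.05, blue bars are list medians and the dashed line is the median of all genes tested, and apart from Pim1, Pim2, Runx3, Bcor and Cd69 no gene shown passed.

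The genes whose log2 values followed those of Pim1 and Pim2 most closely over the 6 arrays were found by Pearson's r among 15644 other genes with a symbol. For Pim1 they were Hivep1 (r = 0.995), Pdcd1lg2 (r = 0.987) and Ncoa4 (r = 0.986). Of these Pdcd1lg2, which encodes an immune checkpoint ligand, fell (log2 change -1.08, adjusted p = 0.0392), while Hivep1 had -0.48 and Ncoa4 -0.55. For Pim2 they were Got1 (r = 0.995), Lin28b (r = 0.994) and Fam3b (r = 0.993), with changes of -0.25, -0.64 and -0.41 that did not pass. The 6 arrays share pair and treatment, and values this high among so many genes are given as a description.

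The calls of Pim1 and Pim2 lay close to the threshold, while their sizes varied little. Over 12 alternatives the log2 change of Pim1 ran from -1.05 to -0.90 and that of Pim2 from -1.08 to -0.93, always downwards, and they passed in 5 and 4 of them. Dropping the block or changing the filter repeats the reported size by construction, so these alternatives bear on the call only. Without pair 1, 2 or 3 the count of members called was 0, with adjusted p of 0.191, 0.249 and 0.0586 for Pim1 and 0.21, 0.226 and 0.0591 for Pim2.

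**Figure D4:**
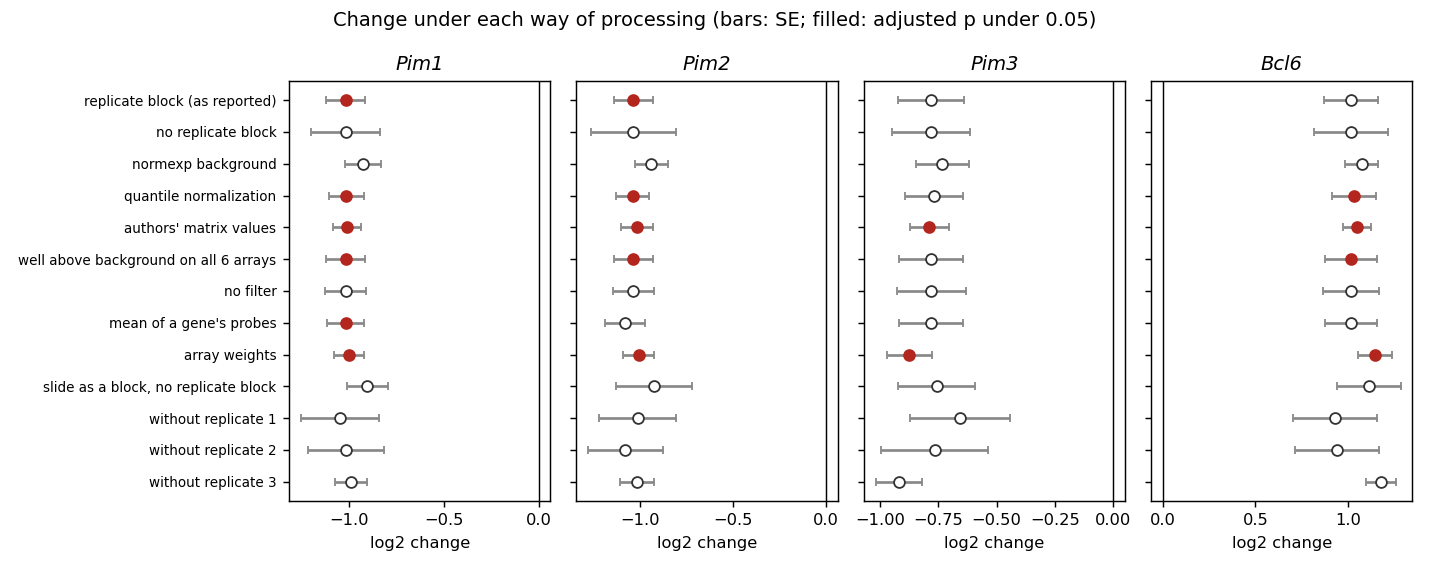
Log2 change with its standard error for Pim1, Pim2, Pim3 and Bcl6 as reported and under 12 alternatives, filled where the adjusted p was under 0.05. The size and sign stay close to the reported value in each panel while the call changes, with Pim1 between -1.05 and -0.90 and Bcl6 between 0.93 and 1.18. Dropping the block or changing the filter repeats the reported size by construction.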

How the data were processed

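Cy3-labelled total RNA of 6 samples was read on 1-colour Agilent arrays (design 014868). Per the file headers, Feature Extraction 10.1.1.1 made the deposited files, whose processed intensity is the software's background-corrected signal and is not scaled between arrays. The authors' deposited series matrix holds log2 values. The submitters' processing notes name limma without its settings. Each processed signal was divided by its array's 75th percentile, put on the log2 scale and averaged over spots of a probe without outlier-flagged spots. Probes well above background on at least 3 arrays entered, named through RefSeq accessions (assembly GRCm38.p6), and the brightest probe stood for a gene. limma 3.58.1 in R 4.3.3 compared the groups with the replicate number as a block, with Benjamini-Hochberg adjustment over 29161 genes. The number of arrays limits the precision.

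Deviations from group means correlated between 0.557 and 0.786 for samples with the same number and between -0.736 and 0.0712 for others. The labels give the numbers and the series design gives independent harvests, so the paired fit was used, and unpaired values are given where a call differs. The fit was tested on simulated data. The members, lists and tests were chosen with earlier results of these data known. All 10 members are named, with up to 6 genes past the threshold and up to 4 others of greatest change from each related list, and the 3 genes closest to Pim1 and to Pim2. A gene that this rule names is not reported here. Alternatives were another background correction, normalization, value source, filter, probe rule, weights, slide block and leaving out each pair.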

Additional observations from a re-analysis of the deposited data

How the results depend on the processing

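The sign of Pim1, Pim2, Pim3, Bcl6, Cish, Stat5a and Stat5b was the same in all 12 alternatives. Not all of these could move an estimate. Dropping the block or changing the filter repeats each member's log2 change and alters only its error and adjusted p. The mean of probes does so too for a gene with a single probe. Socs1 changed sign in 2 of them, Socs2 in 1 and Socs3 in 1, none with a call. The count of members changed was 2 as reported and 0 with no replicate block, with normexp (run on the median spot signal, since the files hold no mean signal), with no filter and with the slide as a block, by limma in each case. At an unadjusted p under 0.05 those counts were 4, 4, 5 and 4. It was 1 with the mean of a gene's probes, and 4 with the authors' matrix values and with array weights. Pim1 had -1.02 without the block, -0.93 with normexp, -1.02 without the filter and -0.90 with the slide as a block, none passing. Pim2 likewise had -1.04, -0.94, -1.04 and -0.93, and -1.08 with the mean of its probes. Bcl6 passed with quantile normalization (1.03), matrix values (1.05), probes above background on all arrays (1.02) and array weights (1.15), and Pim3 with matrix values (-0.79) and array weights (-0.87). The weights of pair 3 were 0.257, against 1.62 and 2.40 for pairs 1 and 2. Leaving out a pair gave Pim1 -1.05 to -0.99, Pim2 -1.08 to -1.02 and 0 members changed. A single array cannot be left out alone, since its partner then carries no paired information.

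Genes changed numbered 196 as reported and 74 with no replicate block. They numbered 0 with normexp (2194 at an unadjusted p under 0.05), 377 with quantile normalization, 727 with matrix values (521 higher, 206 lower), 372 with probes above background on all arrays, 27 without the filter, 1212 with array weights (801 higher, 411 lower) and 59 with the slide as a block. Leaving out a pair gave 26 to 67. With the mean of a gene's probes 20 were lower, against 35. Normexp moved the median of all genes to -0.16. Of the related genes 3 changed as reported, 0 with no replicate block, normexp, no filter or any pair left out, 1 with the mean of probes or the slide as a block, 7 with probes above background on all arrays, 13 with matrix values and 18 with array weights. Their median of 0.084 was 0.0204 with normexp, 0.0604 with matrix values and 0.0634 with array weights. The cause of these differences was not tested.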
